A study of Mus musculus with 4 samples.

Results

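The genes described here are 8 of the TGF-beta pathway, 8 of the 36601 genes in each feature list. They comprise the ligands TGFB1 (ENSG00000105329), TGFB2 (ENSG00000092969) and INHBA (ENSG00000122641), the receptors TGFBR1 (ENSG00000106799) and TGFBR2 (ENSG00000163513), the signal carrier SMAD3 (ENSG00000166949), the inhibitor SMAD7 (ENSG00000101665) and the target gene TGFBI (ENSG00000120708). Each symbol matched 1 row in both lists and all 8 genes were detected. They were followed as unique molecular identifiers (UMIs, 1 for each captured transcript) in single human CD45+ cells, in classes gated by the UMIs of marker genes that include none of the 8.

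The cells came from orthotopic tumors of MDA-MB-231, a human triple-negative breast cancer cell line, in MISTRG mice, which carry human M-CSF, GM-CSF and IL-3 genes and were engrafted with human fetal CD34+ stem cells. The human immune cells therefore grew in a mouse host whose stroma was outside the measurement, and the tumor was a single line. There were 14 mice, 7 untreated and 7 given the drug maraviroc in the drinking water, and every mouse carried the same tumor line. Mice were marked with antibody hashtags and run in 2 reactions of 10x 3' v3.1 chemistry, the first with 4 untreated and 3 maraviroc mice and the second with 3 and 4.

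TGF-beta ligands are secreted in a latent form, and once released they bind TGFBR2, which recruits and phosphorylates TGFBR1. TGFBR1 phosphorylates SMAD2 and SMAD3, which enter the nucleus with SMAD4, and SMAD7 is induced by the pathway and blocks it at the receptor. Activin A, a dimer of the INHBA product, signals through activin receptors to the same SMADs. In tumors the pathway is known for restraining T and NK cells, for its place in regulatory T cell biology and for its action on stroma and tumor cells.

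The 2 reactions held 29120 and 13582 barcodes, of which 136 were shared by both. After limits of 601 to 6000 genes and under 12.5% mitochondrial UMIs, 27645 and 10161 remained, and 11917 and 7900 carried 1 hashtag, with medians of 3020 and 9691.5 UMIs. Of these, 7265 and 6184 fell in 1 class, 4226 and 1252 in none, and 426 and 464 passed several gates and were left out. The summed depth per mouse was 6430731 to 14782548 UMIs in untreated and 5996882 to 13531888 in maraviroc mice. Macrophages (3555 and 2088 cells) carried all of their 8 markers, with summed levels of 7339.6 and 6889 CPM in reactions 1 and 2 (UMIs, with those of the class scaled to a sum of 1000000). RNA of macrophages was also found in other classes, more in reaction 1: the same markers summed to 269 and 81.8 in T cells, 368 and 68.4 in NK cells and 654 and 83.4 in B cells, and the NK markers summed to 435 and 42.8 in macrophages. The macrophage markers summed to 1293 and 1075 in monocytes, 1624 and 1605 in type 2 dendritic cells and 1509 and 159 in mature dendritic cells. How much of this came from macrophages was not tested. Markers of fibroblasts summed to 3.21 and 2.43 CPM in macrophages, with DCN and LUM at 0. Unless stated otherwise, a level is the CPM of a class in a mouse, given as mean ± SD over mice with at least 10 cells of the class, and levels are not compared between genes.

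The 8 genes did not share a distribution across the 9 classes with sums per mouse. TGFBI, TGFB2 and TGFBR1 had their highest mean in macrophages, SMAD3 and TGFBR2 in B cells, INHBA in monocytes and TGFB1 in NK cells. SMAD3 was lowest in macrophages: all 8 other classes had the higher mean, and all but the mature dendritic cells passed the test. SMAD7 means lay between 23.3 and 60.4 CPM.

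**Figure D1:**
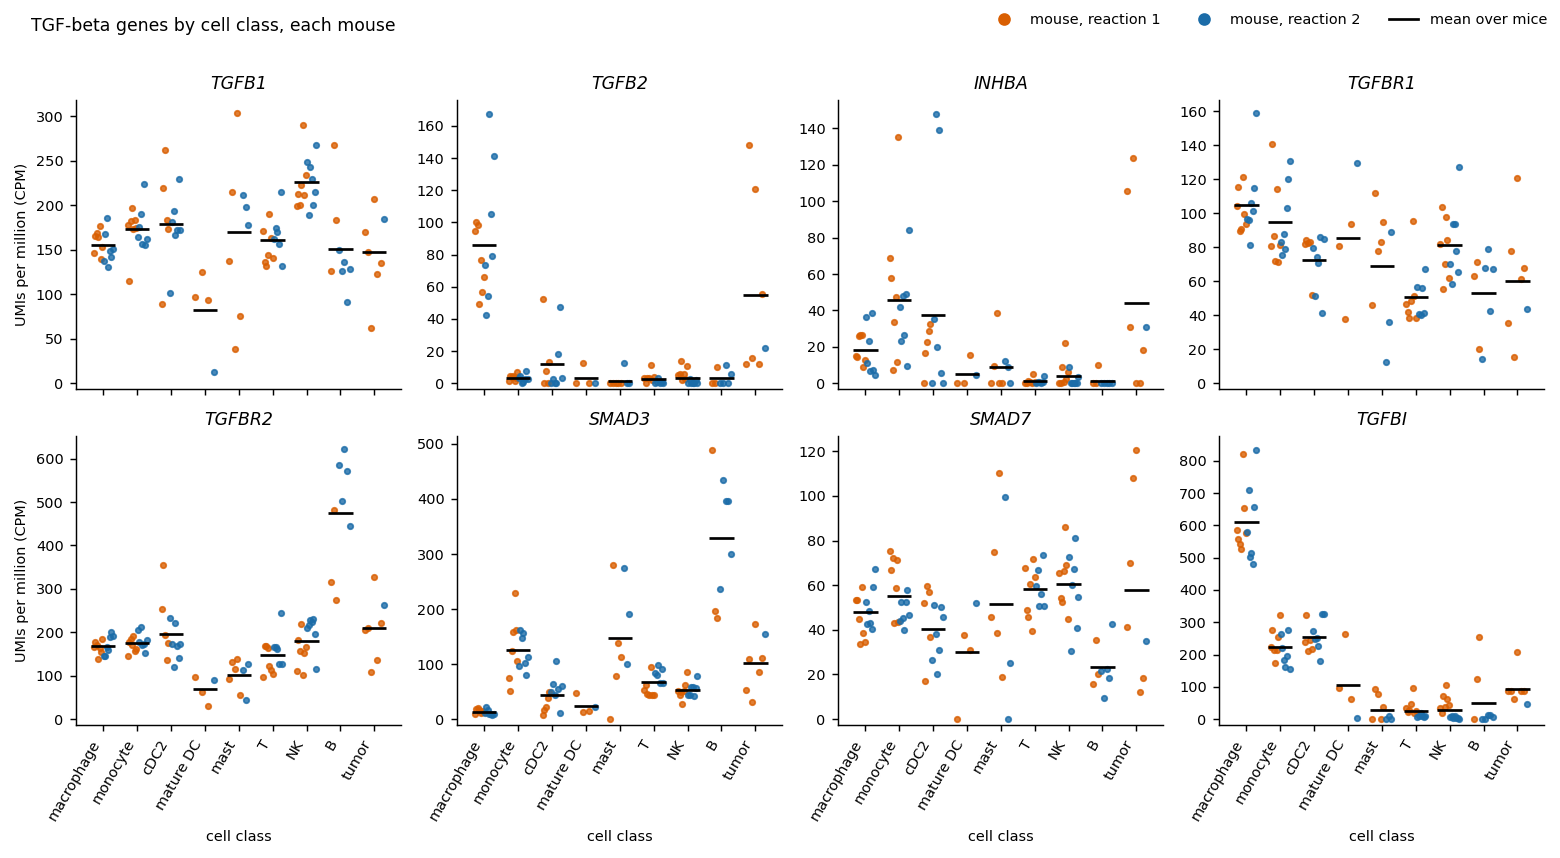
Levels of the 8 TGF-beta genes in CPM by cell class, 1 point per mouse coloured by reaction, with a line at the mean over mice. The macrophage points of TGFBI (481 to 835) lie above those of all other classes, and the macrophage points of SMAD3 (7.44 to 21.3) lie below those of monocytes, T, NK and B cells.

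Each class was tested against macrophages of the same mice with edgeR's quasi-likelihood test, the mouse as a block and Benjamini-Hochberg adjustment over all genes tested. TGFB2 is given without a test, because it was known from earlier results of these data to mark a group of macrophages. In monocytes 5 members were higher and 1 lower of 7, where 64.7% of all genes tested passed (31.5% higher, 33.2% lower). In type 2 dendritic cells (cDC2) 3 were higher and 2 lower of 7, against 44.2% of all genes (21.7% higher, 22.5% lower). In mature dendritic cells 2 were lower of 7, against 21.3% (8.47% higher, 12.8% lower), and in mast cells 1 was higher and 3 lower of 7, against 34.2% (8.86% higher, 25.3% lower). In T cells 1 was higher and 5 lower of 7, against 78.6% (39.6% higher, 39.1% lower), and in NK cells 2 were higher and 3 lower of 7, against 78.2% (38.6% higher, 39.6% lower). In B cells 2 were higher and 3 lower of 6, against 49.4% (22.1% higher, 27.3% lower), and in tumor cells 2 were higher and 2 lower of 7, against 45% (18.6% higher, 26.5% lower). T against NK cells gave 3 lower members of 6, against 38.8% (19.3% higher, 19.5% lower). Each comparison had 6 or 7 members, and the difference of their shares from the background was not tested.

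TGFB1 encodes the most widely expressed TGF-beta ligand. It was found in every class, at 226 ± 28.8 CPM in NK cells (n = 14, lowest 189, median 219, highest 291), 174 ± 24.5 in monocytes (n = 14, 115, 175 and 224) and 156 ± 16.1 in macrophages (n = 14, 131, 152 and 186). The NK range began above the macrophage range, while the monocyte range covered it. Against macrophages TGFB1 was higher in NK cells by 0.30 ± 0.07 (log2 fold change ± SE, edgeR adjusted p = 0.000364) and in monocytes by 0.27 ± 0.06 (adjusted p = 0.000495). The NK difference was 0.15 with adjusted p = 0.149 when all genes with a count were kept. T cells had 161 ± 24.4 (n = 13, 132, 162 and 215). Their TGFB1 was called lower, at -0.20 ± 0.07 (adjusted p = 0.0158) with TMM scaling, although the level was higher than in macrophages in 7 of 13 mice and the difference was 0.05 when libraries were scaled by their totals. Against NK cells, T cells were lower by 0.48 on the log2 scale (SE 0.07, edgeR adjusted p = 1.46e-05), in 12 of 13 mice. These T cells took in all subsets, of which regulatory T cells had the lowest TGFB1. Pooled in reactions 1 and 2, it was 109 and 109 in regulatory, 164 and 215 in CD8A/CD8B and 157 and 212 in other T cells. The part of the subset mix was not tested.

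In the rarer classes TGFB1 levels spread more widely. cDC2 had 179 ± 48.3 (n = 12), mast cells 170 ± 84.2 (n = 8), B cells 151 ± 53.6 (n = 8), tumor cells 147 ± 47.5 (n = 7) and mature dendritic cells 82 ± 48.2 (n = 4). Within the mice that had both, no neighbours in the order of the 9 classes differed on average by more than the SD of the difference, with 3 mice for the lowest pair, tumor and mature dendritic cells. The cDC2 difference of 0.27 ± 0.11 (edgeR adjusted p = 0.0482) passed narrowly: it was lost in 7 of the settings tried and without any 1 of 10 of the 12 mice (0.21 to 0.27), all but mouse 2 of the maraviroc mice of reaction 1 and mouse 1 of those of reaction 2. The mature dendritic cell difference of -1.08 ± 0.37 (adjusted p = 0.0212) rested on 4 mice, and was -0.57 (adjusted p = 0.385) without maraviroc mouse 1 of reaction 2 and -1.18 (adjusted p = 0.0508) without maraviroc mouse 3 of reaction 1.

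TGFB2, a ligand most often described in epithelial, stromal and tumor cells, had its highest mean in macrophages among the classes with sums per mouse. The cells were sorted for human CD45, so the mouse stroma was not measured. The tumor class held only the tumor cells found in that fraction, 118 and 44 in reactions 1 and 2, of which 8 and 5 had a TGFB2 UMI. The macrophage level was 86.2 ± 35.4 CPM (n = 14, lowest 42.5, median 78.1, highest 168). Tumor cells had 55.1 ± 56.7 (n = 7, 11.7, 22 and 148) and cDC2 12.1 ± 18.6 (n = 12, 0, 3.23 and 52.2). These ranges overlapped that of macrophages, with tumor cells lower in 5 of 7 mice and cDC2 in all 12. The macrophage markers summed to 1624 and 1605 CPM in cDC2 of reactions 1 and 2, and the part of macrophage RNA in their TGFB2 was not tested. In monocytes the level was 3.46 ± 2.22 (n = 14, 0.458, 3.12 and 7.57), and in NK, B, mature dendritic, T and mast cells the means lay between 1.56 and 3.6. In each of these classes every mouse was below its own macrophages, with no overlap of the ranges.

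TGFB2 was concentrated in few macrophages. In reaction 1, 501 of 3555 macrophages (14.1%) had a UMI of TGFB2, where an even spread of the same UMIs would reach 32.6%; in reaction 2 these were 434 of 2088 (20.8%) against 70.4%. The cells with 10 or more UMIs were 40 (1.13%) and 81 (3.88%), and they held 42.3% and 65.8% of all TGFB2 UMIs in macrophages. Single cells reached 48 and 146 UMIs. When every cell was thinned to 2000 UMIs, leaving out shallower cells, 8.85% (95% exact binomial interval 7.84 to 9.94) and 9.4% (8.18 to 10.7) of macrophages retained a TGFB2 UMI. In T cells these shares were 1.25% and 0.204%, and the part of macrophage RNA in them was not tested. Unthinned, 2.08% and 0.454% of T cells had one, at median depths of 5189 and 6881 UMIs against 3756 and 12977 in macrophages. The share of TGFB2-positive macrophages per mouse had a lowest value of 9.54%, a median of 18.2% and a highest of 25%. INHBA was 19.8 ± 19.7 in the 935 TGFB2-positive macrophages and 18.4 ± 11.4 in the others, and higher in 7 of 14 mice. In the positive cells it ran from 1.73 to 59.5 over the mice, and the difference was not tested. Here and elsewhere the intervals cover counting error only.

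**Figure D2:**
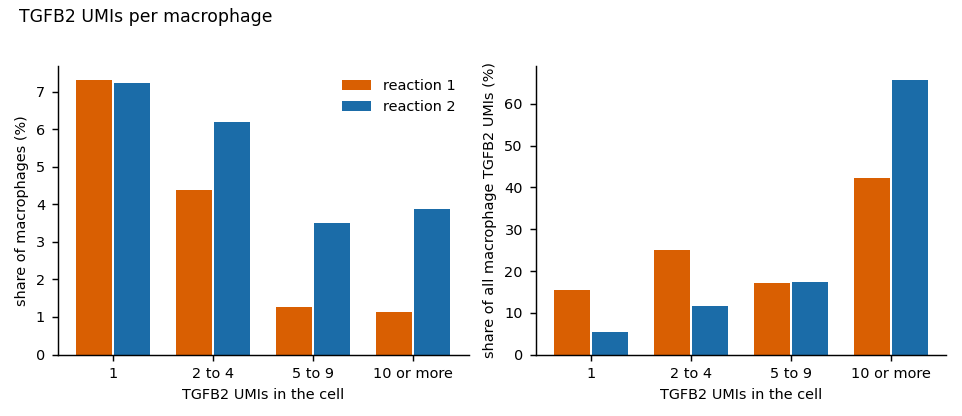
TGFB2 UMIs per macrophage: for each bin (1, 2 to 4, 5 to 9, and 10 or more UMIs) the share of macrophages and the share of all TGFB2 UMIs they hold, by reaction. The bin of 10 or more UMIs has the smallest share of cells in reaction 1 (1.13%) and the largest share of UMIs in both (42.3% and 65.8%).

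INHBA encodes the chain of activin A. Its level was 45.9 ± 34.1 CPM in monocytes (n = 14, lowest 7.41, median 44.5, highest 135) and 18.5 ± 11 in macrophages (n = 14, 4.48, 14.8 and 38.4). The ranges overlapped, but 13 of 14 mice had the higher value in monocytes, and the difference was 1.32 ± 0.30 (log2 ± SE, edgeR adjusted p = 0.000447). Like TGFB2, it was concentrated: 90 of 1155 monocytes (7.79%, against 24.6% for an even spread) and 102 of 1144 (8.92% against 34.6%) had a UMI. The 9 and 16 monocytes with 10 or more UMIs held 62.9% and 66.9% of the total.

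T cells, at 1.06 ± 1.59 (n = 13), and NK cells, at 3.82 ± 6.26 (n = 14), had little INHBA, lower than macrophages by 4.40 on the log2 scale (SE 0.42, edgeR adjusted p = 1.40e-08) and by 2.50 (SE 0.39, adjusted p = 9.70e-06). In tumor cells (44.2 ± 50, n = 7, 0, 30.8 and 124) and cDC2 (37.4 ± 51.2, n = 12, 0, 21.3 and 148) the spread was as large as the mean. Their differences from macrophages, 1.26 ± 0.45 (adjusted p = 0.0231) and 1.17 ± 0.35 (adjusted p = 0.00948), rested on single mice. The tumor cell value was 0.80 (adjusted p = 0.211) without maraviroc mouse 2 of reaction 1 and 1.07 (adjusted p = 0.0969) without untreated mouse 1 of reaction 1. The cDC2 value was 0.87 and 0.97 (adjusted p = 0.0558 for both) without maraviroc mouse 3 or untreated mouse 1 of reaction 2, and DESeq2 called neither class.

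TGFBR1, the signaling type I receptor, had its highest mean among the 9 classes with sums per mouse in macrophages, at 105 ± 19 CPM (n = 14, lowest 81.4, median 100, highest 159). T cells had 51 ± 15.9 (n = 13, 38.4, 46.4 and 95.4), and were lower in 13 of 13 mice although the ranges met. The T cell difference was -1.26 ± 0.08 (log2 ± SE, edgeR adjusted p = 1.94e-11), and NK cells, at 81.5 ± 20.1, differed by -0.61 ± 0.07 (adjusted p = 1.17e-07). B cells (53.2 ± 24.5, n = 8), tumor cells (60.4 ± 34, n = 7) and cDC2 (72.6 ± 15.6, n = 12) were lower too, by 0.98, 0.96 and 0.50 on the log2 scale (SE 0.26, 0.27 and 0.12, adjusted p = 0.0045, 0.00547 and 0.00168). Mast cells, at 68.8 ± 33.8 (n = 8), passed at -0.86 ± 0.31 (adjusted p = 0.0254), but not in 5 of the settings tried nor without any 1 of 6 of the 8 mice (-0.67 to -0.83), namely maraviroc mouse 2 and untreated mice 1 and 3 of reaction 1, and maraviroc mice 1 and 2 and untreated mouse 3 of reaction 2. Monocytes, at 94.7 ± 22.9 (n = 14), were not called at -0.07 ± 0.06 (adjusted p = 0.282), but were at -0.17 (adjusted p = 0.0153) when scaled by totals. T cells were also below NK cells, by 0.61 on the log2 scale (SE 0.10, adjusted p = 4.92e-05).

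TGFBR2 binds the ligand, and among the classes with sums per mouse its highest mean was in B cells. They had 475 ± 126 CPM (n = 8, lowest 275, median 492, highest 623), above their own macrophages in 8 of 8 mice and with no overlap with the macrophage range of 138 to 201 (168 ± 19, n = 14). The difference was 1.51 ± 0.18 (log2 ± SE, edgeR adjusted p = 9.81e-07). T cells of all subsets together had 149 ± 39.5 (n = 13, 96.3, 162 and 246), a difference of -0.40 ± 0.10 from macrophages (adjusted p = 0.00138) that was -0.16 (adjusted p = 0.166) when scaled by totals, and one of -0.33 ± 0.08 from NK cells (adjusted p = 0.00288). The subsets differed: pooled in reactions 1 and 2, TGFBR2 was 66.2 and 43.2 in regulatory, 202 and 292 in CD8A/CD8B and 155 and 229 in other T cells. Pooled macrophages had 164 and 174. The part of the subset mix in the T cell differences was not tested. Mast cells had 102 ± 34.7 (n = 8), with a difference of -0.95 ± 0.27 (adjusted p = 0.00382) that was -0.74 without untreated mouse 4 of reaction 1 (adjusted p = 0.0573) or without maraviroc mouse 2 of reaction 2 (adjusted p = 0.0647).

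For the other classes TGFBR2 gave no firm difference from macrophages. Tumor cells had 210 ± 74 (n = 7), cDC2 196 ± 64.1 (n = 12), NK cells 179 ± 45.9 (n = 14) and mature dendritic cells 70.3 ± 30 (n = 4), with adjusted p values from edgeR of 0.461, 0.187, 0.146 and 0.0538. Monocytes had 176 ± 19 (n = 14, 146, 175 and 211), above macrophages in 8 of 14 mice. Their difference of 0.17 ± 0.06 (adjusted p = 0.0293) was lost in 6 of the settings tried, 0.07 when scaled by totals and 0.07 under stricter gates. It was also lost, at 0.14 to 0.15, without untreated mouse 1 or 2 of reaction 1 or maraviroc mouse 1, 2 or 3 of reaction 2.

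SMAD3, which carries the signal to the nucleus, separated macrophages from nearly every other class. Macrophages had 13.6 ± 4.62 CPM (n = 14, lowest 7.44, median 12.4, highest 21.3) and monocytes 126 ± 46.4 (n = 14, 50.7, 118 and 229). B cells had the highest level at 329 ± 116 (n = 8, 183, 347 and 490). The macrophage range lay below those of monocytes, T, NK, B and tumor cells. Against macrophages SMAD3 was higher in B cells by 4.43 ± 0.22 (log2 ± SE, edgeR adjusted p = 1.17e-11), in monocytes by 3.33 ± 0.13 (adjusted p = 1.29e-15), in mast cells by 3.14 ± 0.31 (adjusted p = 3.26e-14) and in tumor cells by 2.69 ± 0.33 (adjusted p = 2.36e-07). T cells, at 67.2 ± 20.5 (n = 13), NK cells, at 53.5 ± 14.9 (n = 14), and cDC2, at 43.6 ± 27.4 (n = 12), were higher by 2.04 ± 0.18, 1.78 ± 0.18 and 1.88 ± 0.25. All 7 of these calls held in every setting where they could be fitted, and tumor cells could not be fitted in reaction 2 alone. In cells thinned to 2000 UMIs, 3.67% and 2.11% of macrophages and 18.8% and 19.3% of monocytes had a SMAD3 UMI in reactions 1 and 2. T and NK cells differed by 0.37 (adjusted p = 0.0539), a difference called in 4 of the settings tried (0.40 to 0.64), and mature dendritic cells, at 24.5 ± 16.3 (n = 4), were not called (adjusted p = 0.473).

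SMAD7, the inhibitor of the receptor, had no neighbouring classes whose mean difference within mice exceeded its SD. Its level was 60.4 ± 15.4 CPM in NK cells (n = 14), 58.1 ± 10.6 in T cells (n = 13), 55 ± 12.2 in monocytes (n = 14) and 48 ± 9.99 in macrophages (n = 14, lowest 33.5, median 46.8, highest 67.2). B cells had the lowest mean, 23.3 ± 10.8 (n = 8). Monocytes were higher than macrophages by 0.29 ± 0.09 (log2 ± SE, edgeR adjusted p = 0.00899), a call that was 0.18 (adjusted p = 0.0823) when scaled by totals and 0.06 in reaction 2 by itself, and B cells were lower by 0.92 (SE 0.31, adjusted p = 0.0180). T and NK cells were not called (adjusted p = 0.214 and 0.411), but both were higher, by 0.39 and 0.35, when scaled by totals.

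TGFBI, an extracellular matrix protein named for its induction by TGF-beta, was lower in all 8 other classes than in macrophages. Macrophages had 610 ± 112 CPM (n = 14, lowest 481, median 578, highest 835), cDC2 255 ± 47.3 (n = 12, 181, 246 and 325) and monocytes 224 ± 49.1 (n = 14, 155, 216 and 323). The macrophage range overlapped none of the other 8 classes. The difference was -1.20 ± 0.09 in cDC2 (log2 ± SE, edgeR adjusted p = 4.89e-10), -1.36 ± 0.09 in monocytes (adjusted p = 4.08e-12), -2.89 ± 0.23 in tumor cells (adjusted p = 6.95e-11) and -2.77 ± 0.35 in mature dendritic cells (adjusted p = 2.23e-13). In T cells (25.7 ± 24, n = 13), NK cells (29 ± 31.8, n = 14), B cells (51.1 ± 92.5, n = 8) and mast cells (27.2 ± 38.4, n = 8) it was -5.22, -4.89, -4.14 and -4.74. These low levels moved with the reaction and with the macrophage markers: summed over mice they were 32.8 and 9.81 in T cells, 51 and 5.52 in NK cells and 120 and 7.94 in B cells of reactions 1 and 2, while the summed macrophage markers in those classes ran from 269 to 654 in reaction 1 and from 68.4 to 83.4 in reaction 2. In mature dendritic cells pooled TGFBI was 106 and 3.13 in reactions 1 and 2, where the macrophage markers summed to 1509 and 159. The part of macrophage RNA in these levels was not tested. Thinned to 2000 UMIs, 60.3% and 63.9% of macrophages had a TGFBI UMI, against 8.95% and 1.83% of T cells.

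Plasmacytoid dendritic cells (12 and 30 cells) and type 1 dendritic cells (cDC1, 53 and 34 cells) were too few for tests on sums per mouse, with 0 and 2 mice of at least 10 cells. They were left out of the comparisons above and pooled within each reaction. Plasmacytoid cells had a pooled TGFBR2 of 631 CPM (95% exact Poisson interval 462 to 842) and 482 (409 to 565), beside 361 (294 to 440) and 540.0 (489 to 595) in B cells. Their TGFBR1 was 110 and 385 (320 to 460), so the 2 reactions did not give the same value. cDC1 had 107 (78.7 to 142) and 58.5 (38.6 to 85.1) of SMAD3, while the 2 mice with at least 10 cells, both of reaction 1, had 0 and 52.6. No UMI of TGFB2 was found in cDC1 of either reaction, where 3 UMIs, the limit that a count of 0 allows, would be 6.67 and 6.50 CPM. With hashtag doublets and negatives included, cDC1 had 1 TGFB2 UMI in 125 barcodes of reaction 1. In reaction 2 they then had 30 in 51 barcodes (33.8 CPM).

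The genes whose pattern over the 22 sums of class and reaction was most like each member's were picked by Pearson's r among genes of at least 10 CPM, and are given as a description, since the points share libraries and depth. TGFBI went with FCGRT (r = 0.934), KCTD12 (0.930) and THBD (0.926), and TGFBR2 with NARS2 (0.927), MRTFB (0.908) and DOP1B (0.873). TGFB1 went with MAN2A2 (0.905), TMX4 (0.853) and ZFP36L2 (0.839), TGFB2 with GPX3 (0.842), KIAA2013 (0.832) and EPHB2 (0.823), and INHBA with VAMP3 (0.888), VEGFA (0.862) and TNFRSF10D (0.856). For TGFBR1, SMAD3 and SMAD7 the highest values were lower, led by CLCN5 (0.768), PKIG (0.759) and ZBTB38 (0.775).

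Around the members, a wider list of 58 pathway genes was counted in the same fits. Against macrophages 17 were higher and 12 lower of 39 tested in monocytes, 5 and 11 of 30 in cDC2, 5 and 10 of 35 in mature dendritic cells, 5 and 15 of 32 in mast cells, 12 and 25 of 41 in T cells, 10 and 20 of 32 in NK cells, 5 and 13 of 27 in B cells and 14 and 12 of 39 in tumor cells. Of all genes tested, 64.7%, 44.2%, 21.3%, 34.2%, 78.6%, 78.2%, 49.4% and 45% passed in these classes, in the same order. The difference of the list from these shares was not tested. The median log2 difference over the list lay between -0.94 (T and B cells) and 0.04 (tumor cells). The split of all genes depended on the scaling: with library totals in place of TMM, higher and lower calls went from 3343 and 3523 to 2630 and 4370 in monocytes, from 1875 and 1944 to 1517 and 2407 in cDC2, from 825 and 2357 to 1134 and 1751 in mast cells, from 4499 and 4444 to 5754 and 3476 in T cells and from 3772 and 3874 to 4888 and 3051 in NK cells. The median of all genes then shifted by 0.26 in T cells, 0.23 in NK cells, -0.12 in monocytes and cDC2, -0.17 in mast cells and -0.42 in mature dendritic cells, where TMM gave -0.41 and -0.28 in the last 2.

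The pathway genes with the largest called differences were named for each class, as log2 differences from macrophages by edgeR. In monocytes these were ITGB8, part of an integrin that activates latent TGF-beta (2.59), and THBS1, an activator of the latent ligand (2.07), with the receptor BMPR1A (-1.44), ID3 (-1.20) and the latent ligand binding protein LTBP2 (-1.15) lowest. In cDC2 they were BMP6 (2.67), ACVR2A (1.17) and CDKN1A (0.97), with ITGAV (-1.64), SPHK1 (-1.38) and SMURF2 (-1.35). In mature dendritic cells they were ID2 (2.57), CDKN1A (2.50) and BMP6 (2.32), with LTBP2, which had no UMI in any of the 4 mice, THBS1 (-4.93) and FN1 (-4.74). In mast cells they were BMPR1A (2.91), TSC22D1 (2.34) and ACVR1B (2.13), with SPHK1, which had no UMI in any of the 8 mice, ACVR2A (-3.96) and ACVRL1 (-3.76). In T cells TGFBR3, the co-receptor betaglycan (5.20), ITGAE, the integrin chain CD103 (3.21), and ITGB8 (1.85) were highest and ACVRL1 (-4.96), SMAD6 (-4.35) and the co-receptor ENG (-4.09) lowest.

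NK cells shared some of these: TGFBR3 (3.56), ITGAE (2.60) and ACVR1B (1.23) were highest and ACVRL1 (-4.33), ENG (-3.54) and SPHK1 (-3.04) lowest. Against NK cells, T cells had 9 of 25 tested higher and 8 lower, where 38.8% of all genes passed (19.3% higher, 19.5% lower). These were led by TGFBR3 (1.68), ACVR1 (1.52) and PMEPA1 (1.44) and by ACVR1B (-2.64), ID2 (-1.06) and SMAD5 (-0.86). In B cells the extremes were PMEPA1 (2.26), TGIF2 (1.62) and ITGAE (1.58) and FN1 (-3.81), THBS1 (-3.71) and ITGAV (-3.40). In tumor cells they were CCN2 (7.91), LTBP1 (7.15) and ID1 (6.07) and ACVRL1 (-4.48), ENG (-3.83) and LDLRAD4 (-2.85).

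Within macrophages, 7 states were gated by their own marker genes and compared with macrophages of no state (1328 and 723 cells in reactions 1 and 2). A state needed at least 4 marker UMIs in the cell. In reaction 1 the no-state cells were the shallowest, with a median of 3273.5 UMIs against 3984 to 6100.5 in the states. In reaction 2 their median was 13416, against 11663 to 15979. The part of depth in the state differences was not tested. The gates overlapped, with 749 and 379 macrophages in several states and counted in each, and from 19.4% to 55.2% of a state's cells also passed gates 1.5 times stricter. Against no-state cells TGFBI was higher in 4 states, SMAD3 lower in LYVE1+ and TREM2+ SPP1+ cells, and INHBA higher in GLUT1+ and TREM2+ SPP1+ cells. The calls of TGFBI in MT1G+ and of INHBA in TREM2+ SPP1+ cells were lost without single mice. The macrophage gate admitted cells with monocyte markers up to 4 times the macrophage markers. Monocytes differed from macrophages by 3.33 in SMAD3 and -1.36 in TGFBI (log2). The part of such cells in the no-state reference was not tested. In LYVE1+ macrophages, gated by genes of resident macrophages, both receptors and TGFBI rose together, while in CXCL10+ macrophages, gated by interferon-induced genes, both receptors fell.

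**Figure D3:**
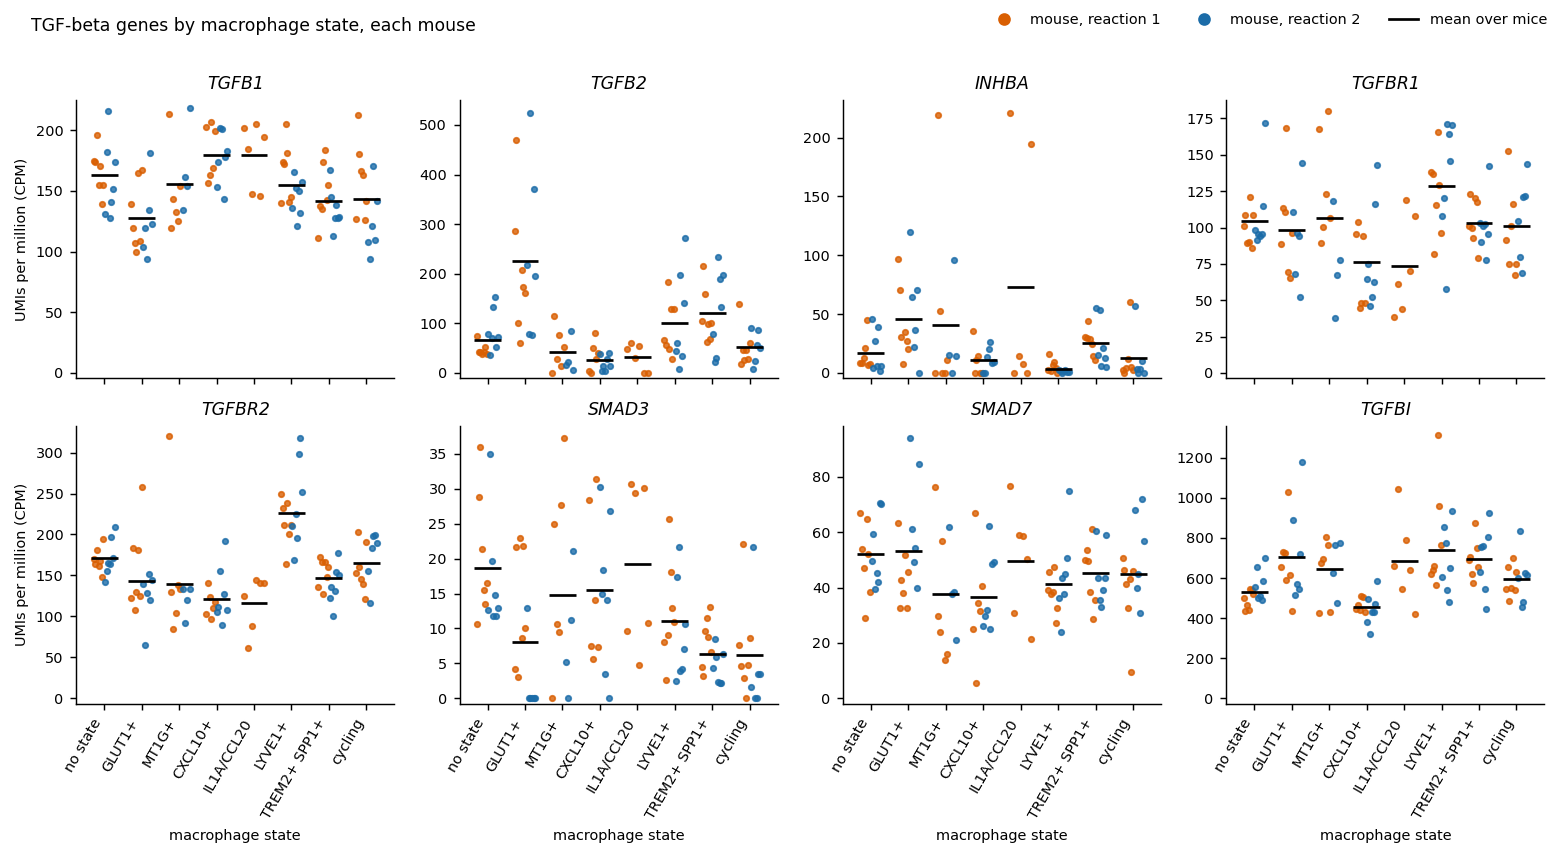
Levels of the 8 TGF-beta genes in CPM by macrophage state, 1 point per mouse coloured by reaction, with a line at the mean. TGFB2 is spread most widely in GLUT1+ macrophages (61.1 to 524), and the TGFBR2 points of LYVE1+ macrophages (164 to 317) reach higher than those of CXCL10+ macrophages (90 to 192).

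TGFB2 left out as before, 3 members were higher and 2 lower of 6 tested in LYVE1+ macrophages, where 30% of all genes passed (15.1% higher, 14.9% lower). In TREM2+ SPP1+ macrophages 2 were higher and 1 lower of 7, against 25.1% (12.4% higher, 12.7% lower), and in GLUT1+ macrophages 2 were higher of 6, against 25.4% (14.8% higher, 10.5% lower). In CXCL10+ macrophages 1 was higher and 2 lower of 5, against 23.7% (12.8% higher, 10.9% lower), and in MT1G+ macrophages 1 was higher of 5, against 8.69% (3.94% higher, 4.75% lower). In IL1A/CCL20 macrophages 0 of 6 passed, against 1.2% (0.995% higher, 0.207% lower), with 1 at an unadjusted p under 0.05 (TGFBI) and 0 called by DESeq2. In cycling macrophages 0 of 5 passed, against 40.6% (20% higher, 20.6% lower), with 0 at an unadjusted p under 0.05 and 1 called by DESeq2 (SMAD3, lower, which edgeR's filter left out). SMAD3 in GLUT1+, MT1G+, CXCL10+ and cycling macrophages and INHBA in MT1G+, CXCL10+, LYVE1+, cycling and IL1A/CCL20 macrophages did not pass edgeR's filter on low counts.

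TGFB2 was highest in GLUT1+ macrophages, whose gate holds genes induced by low oxygen. Their level was 225 ± 150 CPM (n = 13, lowest 61.1, median 195, highest 524), against 66.1 ± 36.1 with no state (n = 14, 37.2, 52.5 and 153), and it was the higher of the pair in 12 of 13 mice, with overlapping ranges. TREM2+ SPP1+ macrophages, gated by genes of lipid-associated macrophages, had 121 ± 68.6 (n = 14, 22.5, 102 and 234), higher in 12 of 14 mice, and LYVE1+ macrophages 99.9 ± 77 (n = 14, 7.24, 64.1 and 271), higher in 9 of 14. CXCL10+ macrophages had the lowest mean, 26.6 ± 23.6 (n = 13, 0, 27.5 and 81.3), lower in 10 of 13 mice. Of all neighbours in the order, only MT1G+ (41.5 ± 38.6, n = 10) and IL1A/CCL20 (32.2 ± 27.1, n = 6) differed within mice by more than the SD of the difference. The IL1A/CCL20 mice were all of reaction 1, where the pooled levels went the other way, 51.7 in MT1G+ and 56.3 in IL1A/CCL20 cells. In reaction 2 they were 70.6 and 57.2. None of the steps between neighbours was tested. Also in GLUT1+ cells the UMIs were concentrated: 47 of 190 (24.7%) and 52 of 162 (32.1%) had a TGFB2 UMI, and the 9 and 20 cells with 10 or more held 63.0% and 81.4% of the total.

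INHBA, the activin chain, had 46.3 ± 35.7 CPM in GLUT1+ macrophages (n = 13, lowest 0, median 34.6, highest 120) and 17.1 ± 15.7 with no state (n = 14, 1.62, 8.54 and 45.8). The ranges overlapped and 9 of 13 mice had the higher value in GLUT1+ cells, for a difference of 1.95 ± 0.38 (log2 ± SE, edgeR adjusted p = 0.000369). This call had no value under stricter gates. It also rested on few cells: 2 of 190 and 4 of 162 GLUT1+ cells had 10 or more INHBA UMIs in reactions 1 and 2. They held 55.0% and 60.6% of the INHBA UMIs of the state. In TREM2+ SPP1+ macrophages it was 25.3 ± 16.3 (n = 14), higher in 11 of 14 mice. That difference, 0.70 ± 0.23 (adjusted p = 0.0259), was lost at 0.59 to 0.63 without maraviroc mouse 1, 2 or 3 of reaction 1 or untreated mouse 2 of reaction 2. LYVE1+ macrophages had 3.6 ± 4.38 (n = 14), lower in 13 of 14 mice, and IL1A/CCL20 macrophages had 72.9 ± 105 (n = 6, all of reaction 1, lowest 0, median 11.3, highest 221).

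The receptors moved together in opposite ways in LYVE1+ and CXCL10+ macrophages. TGFBR2 was 227 ± 43.4 in LYVE1+ macrophages (n = 14, lowest 164, median 218, highest 317), 171 ± 18.9 with no state (n = 14, 142, 166 and 210) and 122 ± 27.6 in CXCL10+ macrophages (n = 13, 90, 112 and 192). The ranges overlapped, but 14 of 14 mice were higher in LYVE1+ and 12 of 13 lower in CXCL10+ cells, with differences of 0.42 ± 0.07 (log2 ± SE, edgeR adjusted p = 2.28e-05) and -0.43 ± 0.09 (adjusted p = 0.00147). TGFBR1 was 129 ± 34.6 in LYVE1+ (n = 14), 105 ± 21.9 with no state (n = 14) and 76.4 ± 31.5 in CXCL10+ macrophages (n = 13). Its differences were 0.33 ± 0.09 (adjusted p = 0.00555, higher in 10 of 14 mice) and -0.40 ± 0.12 (adjusted p = 0.0162, lower in 11 of 13), the latter with adjusted p = 0.0647 under stricter gates. In IL1A/CCL20 macrophages both receptors were lower in 6 of 6 mice, at 73.6 ± 33.2 for TGFBR1 and 117 ± 34.1 for TGFBR2. Neither passed before adjustment, at -0.23 (edgeR unadjusted p = 0.588) and -0.31 (unadjusted p = 0.167). Pooled over the cells of reaction 1, which held all 6 mice, TGFBR1 was 96.7 against 99.4 with no state. When scaled by totals, TGFBR2 was also called lower in GLUT1+ (-0.32, adjusted p = 0.0274) and TREM2+ SPP1+ macrophages (-0.21, adjusted p = 0.00657).

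SMAD3, already low in macrophages, was 6.37 ± 3.53 CPM in TREM2+ SPP1+ macrophages (n = 14, lowest 2.17, median 6.15, highest 13.1) and 18.6 ± 8.61 with no state (n = 14, 10.7, 15.1 and 36). It was lower in 14 of 14 mice, with overlapping ranges, by 1.40 on the log2 scale (SE 0.19, edgeR adjusted p = 2.86e-06). LYVE1+ macrophages had 11.1 ± 7.29 (n = 14), lower by 0.83 (SE 0.21, adjusted p = 0.00348) and in 11 of 14 mice. Cycling macrophages had 6.22 ± 7.45 (n = 13), lower in 13 of 13 mice, and did not pass edgeR's filter on low counts. SMAD7, the inhibitor, was 41.4 ± 12.2 in LYVE1+ and 52.1 ± 12.9 in no-state macrophages (n = 14 each), a difference of -0.36 ± 0.11 (adjusted p = 0.0147). In CXCL10+ macrophages SMAD7 was 36.7 ± 16.7 (n = 13, adjusted p = 0.0683), and it was called lower there at -0.54 when scaled by totals and at -0.83 under stricter gates.

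TGFBI was 741 ± 219 CPM in LYVE1+, 707 ± 212 in GLUT1+ and 696 ± 130 in TREM2+ SPP1+ macrophages (n = 14, 13 and 14), against 532 ± 75.7 with no state (n = 14, lowest 434, median 514, highest 701). It was higher in 13 of 14, 11 of 13 and 13 of 14 mice, with ranges that overlapped. The differences were 0.45 ± 0.08 (log2 ± SE, edgeR adjusted p = 0.00012), 0.54 ± 0.10 (adjusted p = 0.00021) and 0.44 ± 0.06 (adjusted p = 1.78e-06), and the GLUT1+ one had adjusted p = 0.306 under stricter gates at a like size of 0.51. CXCL10+ macrophages had 455 ± 64.7 (n = 13, 321, 447 and 585), lower in 11 of 13 mice, with -0.14 (adjusted p = 0.19) by TMM and -0.23 (adjusted p = 0.0213) by totals. In MT1G+ macrophages, gated by metallothionein genes, the difference of 0.34 ± 0.10 (adjusted p = 0.0420) was lost in 5 of the settings tried. It was also lost, at 0.30 to 0.36, without maraviroc mouse 3 or untreated mouse 1, 2 or 3 of reaction 1 or maraviroc mouse 2 or untreated mouse 2 of reaction 2.

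TGFB1 means in the states ran from 128 ± 27.9 in GLUT1+ (n = 13, lowest 93.8, median 119, highest 181) to 180 ± 26.7 in IL1A/CCL20 macrophages (n = 6). GLUT1+ cells were lower than no-state cells in 11 of 13 mice, with -0.15 (edgeR adjusted p = 0.312) by TMM and -0.34 (adjusted p = 0.0131) by totals. The CXCL10+ difference of 0.23 ± 0.08 (adjusted p = 0.0454, 179 ± 21.4, n = 13, higher in 9 of 13 mice) was lost in 5 of the settings tried. It was also lost without any 1 of 9 mice (0.19 to 0.25), namely untreated mice 1, 3 and 4 and maraviroc mouse 1 of reaction 1 and untreated mice 1, 2 and 3 and maraviroc mice 1 and 4 of reaction 2.

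Of the wider list, 4 genes were higher and 6 lower of 31 tested in LYVE1+, 5 and 9 of 32 in TREM2+ SPP1+, 1 and 1 of 24 in GLUT1+, 3 and 4 of 26 in CXCL10+, 1 and 4 of 26 in MT1G+, 2 and 9 of 27 in cycling and none of 28 in IL1A/CCL20 macrophages, with list medians between -0.20 and 0.06. Of all genes tested, 30%, 25.1%, 25.4%, 23.7%, 8.69%, 40.6% and 1.2% passed in these states, in the same order. The difference of the list from these shares was not tested. THBS1, an activator of latent TGF-beta, was among the lowest in 5 of these states, by log2 differences of -1.93 in LYVE1+, -1.21 in cycling, -1.01 in CXCL10+, -0.98 in MT1G+ and -0.98 in TREM2+ SPP1+ macrophages. All are against the same no-state cells. THBS1 was higher in monocytes than in macrophages, and the part of cells with monocyte markers in the no-state reference was not tested. The other extremes were ACVRL1 (0.61), TSC22D1 (0.43), FURIN (0.28), FN1 (-1.12) and ITGAE (-0.60) in LYVE1+, and ACVRL1 (0.55), ACVR1 (0.43), FURIN (0.31), ACVR2A (-0.57) and ITGAE (-0.45) in TREM2+ SPP1+ macrophages. In CXCL10+ cells they were SPHK1 (0.75), BMPR2 (0.33), FKBP1A (0.26), LDLRAD4 (-0.88) and ID3 (-0.67), and in MT1G+ cells FN1 (2.78), LDLRAD4 (-0.67) and SMURF2 (-0.55). ACVR1 (1.17) and ACVR2A (-0.71) were those of GLUT1+ cells, and SPHK1 (0.55), ID2 (0.30), ACVR2A (-1.03) and LDLRAD4 (-0.65) those of cycling cells.

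With library totals in place of TMM, higher and lower calls over all genes went from 985 and 701 to 623 and 1987 in GLUT1+, from 288 and 347 to 200 and 553 in MT1G+, from 951 and 809 to 662 and 1250 in CXCL10+, from 72 and 15 to 50 and 37 in IL1A/CCL20 and from 1156 and 1178 to 860 and 1861 in TREM2+ SPP1+ macrophages. The median of all genes then shifted by -0.22 in GLUT1+ and -0.19 in IL1A/CCL20 cells.

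T cells were split by FOXP3 and other regulatory T cell genes (254 and 738 cells in reactions 1 and 2), by CD8A and CD8B (222 and 450) and into the remainder (535 and 794), and these are described per mouse with no test. Regulatory T cells had the lowest levels of TGFB1, TGFBR2, SMAD3 and SMAD7 of the 3 subsets. For TGFBR1 regulatory T cells were above other T cells in 7 of 12 mice.

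**Figure D4:**
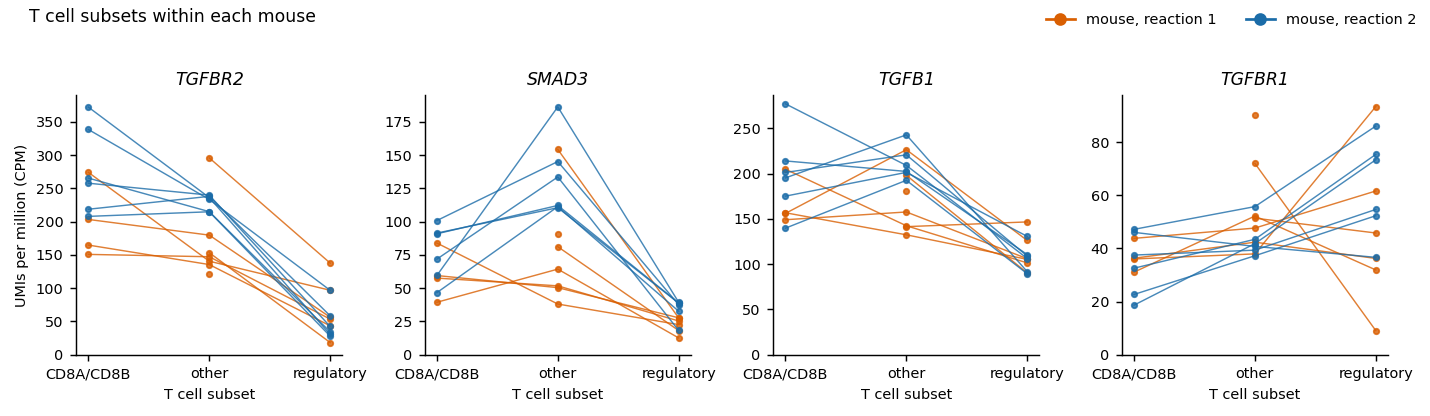
Levels of TGFBR2, SMAD3, TGFB1 and TGFBR1 in CPM in CD8A/CD8B, other and regulatory T cells, with 1 point per mouse coloured by reaction and a line joining the subsets of a mouse. Each mouse's line falls to its regulatory T cells for TGFBR2 (18 to 138) and SMAD3 (12.5 to 39.3).

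TGFBR2, the ligand-binding receptor, was 57.8 ± 35.2 CPM in regulatory T cells (n = 12, lowest 18, median 48.2, highest 138), 245 ± 71.1 in CD8A/CD8B T cells (n = 10, 151, 238 and 372) and 196 ± 53.4 in other T cells (n = 13, 121, 215 and 296). The regulatory range lay below that of CD8A/CD8B cells, and regulatory cells were lower in all mice where a pair could be formed, 10 of 10 and 12 of 12. SMAD3 was 28.2 ± 9.25 in regulatory (n = 12, 12.5, 27.6 and 39.3), 70.1 ± 20.8 in CD8A/CD8B (n = 10, 39.3, 65.6 and 101) and 102 ± 45 in other T cells (n = 13, 38, 110 and 186), again lowest in regulatory cells in 10 of 10 and 12 of 12 mice.

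TGFB1, although a product tied to regulatory T cell function, was 109 ± 17.4 CPM there (n = 12, lowest 89.3, median 106, highest 147), 187 ± 41 in CD8A/CD8B (n = 10, 140, 185 and 277) and 188 ± 35.2 in other T cells (n = 13, 132, 198 and 243). Regulatory cells were lower in 10 of 10 and 11 of 12 mice. SMAD7 was 44.9 ± 17.4, 75.5 ± 22.9 and 61.9 ± 11.8 in the same order, lower in regulatory cells in 8 of 10 and 9 of 12 mice. TGFBR1 was 54.7 ± 24.7, 35.2 ± 9.43 and 50.2 ± 15.4, and CD8A/CD8B cells were below other T cells in 9 of 10 mice. TGFBI was 12.2 ± 9.3, 6.59 ± 6.06 and 40 ± 26.5. In reaction 1 the other T cells also carried the most macrophage markers, 502 CPM against 136 in regulatory and 121 in CD8A/CD8B cells. In reaction 2 these markers summed to 84.3 in other, 74.9 in regulatory and 89.1 in CD8A/CD8B cells. Pooled TGFBI was 12.7, 8.97 and 6.65 there, in the same order.

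The comparison of maraviroc-treated with untreated mice asked whether the drug changed the cells of the tumor. No member passed the test, which was edgeR's quasi-likelihood test on UMIs summed per mouse, with the reaction as a covariate and adjustment over all genes tested, in macrophages, monocytes, cDC2, T and NK cells. No gene passed the adjusted threshold in any of the 5 classes (0% of 11724, 9163, 4858, 10482 and 7768 genes tested), and 416, 368, 157, 305 and 247 genes had an unadjusted p under 0.05 (3.55%, 4.02%, 3.23%, 2.91% and 3.18%). DESeq2 called 1 gene in T cells, no member, and 0 in the other classes. Of the 33 tests of members, 1 had an unadjusted p under 0.05. In sums over cells, fewer expressing cells and less RNA per cell cannot be told apart.

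**Figure D5:**
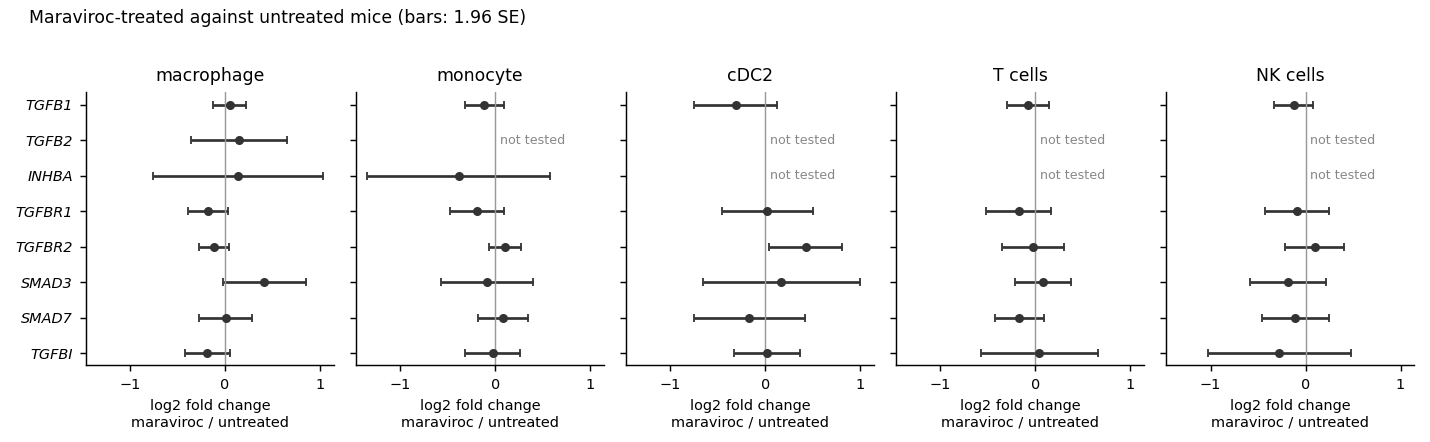
Log2 fold change of maraviroc over untreated mice for each of the 8 TGF-beta genes in macrophages, monocytes, cDC2, T and NK cells, with the edgeR estimate as a point and genes too low to be tested marked as such. Bars are 95% normal intervals from an SE derived from the F value of the test. All bars cross 0 but that of TGFBR2 in cDC2 (0.43).

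In macrophages, TGFB1 was 154 ± 12.8 in untreated (n = 7, lowest 140, median 151, highest 176) and 158 ± 19.7 in maraviroc mice (n = 7, 131, 166 and 186). TGFB2 was 82.2 ± 31.8 (49.3, 76.8 and 141) and 90.2 ± 40.8 (42.5, 94.9 and 168), and INHBA 17.9 ± 12.7 (4.48, 13.1 and 38.4) and 19.1 ± 10 (7, 15.2 and 36.2). The ranges of the 3 ligands covered each other, and their log2 differences of 0.05 ± 0.09, 0.15 ± 0.26 and 0.13 ± 0.46 (± SE) were smaller than their errors. TGFB2 did not differ in the same direction in the 2 reactions: in reaction 1 the untreated mice had 49.3 to 76.8 and the maraviroc mice 94.9 to 100 (0.62, unadjusted p = 0.0010, edgeR adjusted p = 0.726), and in reaction 2 the groups overlapped (-0.29).

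TGFBR1 in macrophages was 111 ± 23.7 in untreated (n = 7, lowest 90.6, median 102, highest 159) and 98.5 ± 11.2 in maraviroc mice (n = 7, 81.4, 96.9 and 116), and TGFBR2 was 175 ± 22.9 (138, 185 and 201) and 161 ± 12.2 (144, 165 and 178). All maraviroc values of TGFBR2 were below the untreated median, yet the groups overlapped, and the log2 differences were -0.18 ± 0.11 and -0.12 ± 0.08 (± SE). Within reactions they were -0.01 and -0.34 for TGFBR1 and 0.06 and -0.30 for TGFBR2. In reaction 2 by itself the TGFBR2 ranges did not meet, at 190 to 201 and 144 to 165 (edgeR adjusted p = 0.934).

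SMAD3 in macrophages was 11.9 ± 3.26 in untreated (n = 7, lowest 7.44, median 10.6, highest 16.4) and 15.2 ± 5.41 in maraviroc mice (n = 7, 8.45, 17.2 and 21.3), a log2 difference of 0.41 ± 0.22 (± SE, edgeR unadjusted p = 0.0800). SMAD7 was 47.6 ± 13.9 (33.5, 40.3 and 67.2) and 48.4 ± 4.8 (42.8, 48.5 and 53.5), and TGFBI 650 ± 137 (481, 655 and 835) and 570 ± 68.9 (501, 558 and 708). These groups overlapped as well, with differences of 0.01 ± 0.14 and -0.19 ± 0.12. Within reactions SMAD3 differed by 0.16 and 0.68, SMAD7 by 0.26 and -0.22 and TGFBI by -0.23 and -0.14.

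In the other classes the one member with an unadjusted p under 0.05 was TGFBR2 in cDC2, at 165 ± 21.7 in untreated (n = 6, lowest 137, median 171, highest 195) and 226 ± 79.5 in maraviroc mice (n = 6, 120, 228 and 355). The groups overlapped, and the difference was 0.43 ± 0.20 (log2 ± SE, edgeR unadjusted p = 0.0451, adjusted p = 0.9997), with 0.81 and 0.22 in reactions 1 and 2. In monocytes SMAD3 was 136 ± 50.8 in untreated (n = 7, 80.9, 112 and 229) and 116 ± 43 in maraviroc mice (n = 7, 50.7, 124 and 161), a difference of -0.09 ± 0.25 that was -0.92 in reaction 1 and 0.58 in reaction 2. TGFBR1 in monocytes was 98.9 ± 24.1 and 90.4 ± 22.6 (n = 7 each), with -0.19 ± 0.14 over both reactions, 0.23 in reaction 1 and -0.49 in reaction 2, where the ranges were 103 to 130 and 75.2 to 87.6. The difference between the reactions in the effect of maraviroc was itself tested. No gene passed in any of these classes, and none of the 33 member values did. The lowest was SMAD3 in monocytes, at 1.49 ± 0.36 (edgeR unadjusted p = 0.000648, adjusted p = 0.286).

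The wider list gave no call for treatment either, of 41 genes tested in macrophages, 33 in monocytes, 17 in cDC2, 32 in T cells and 22 in NK cells. At an unadjusted p under 0.05 there were 4, 4, 0, 2 and 2. Of all genes tested, 3.55%, 4.02%, 3.23%, 2.91% and 3.18% were under this limit, and the difference of the list from these shares was not tested.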

How the data were processed

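Human CD45+ cells of tumors from 14 mice were measured in 2 hashtag-pooled reactions. Per the labels and the study's methods, the authors made the deposited UMI counts per gene and barcode with Cell Ranger 9.0.1 on GRCh38. Seurat 5.1.0 is named in the submitters' processing notes. The mouse and its treatment were read from hashtag names in the feature lists, since the sample labels do not give them. Barcodes with 601 to 6000 genes and under 12.5% mitochondrial UMIs were kept, hashtags were called with Seurat 5.3.0 (quantile 0.99), and barcodes with several hashtags (10174 and 2142) or none (5554 and 119) were removed; doublets within a mouse were not called. Barcodes shared by both reactions were treated as separate cells.

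Classes and states were gated by UMIs of marker genes per 10000, with at least 3 to 8 marker UMIs per cell, at thresholds set after seeing the marker distributions. Counts were summed per mouse and class over at least 10 cells and tested with edgeR 4.0.16 (R 4.3.3; glmQLFit, glmQLFTest, TMM, filterByExpr), and DESeq2 1.42.0 was an alternative. P-values were adjusted by Benjamini-Hochberg over all genes tested. The SE given with an edgeR estimate is the size of the log2 fold change divided by the square root of the test's F value. It need not match the p-value of the test. The steps were tested on simulated data.

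All 8 members were named in every comparison. Of 58 further pathway genes, the 3 with the largest called differences in each direction were named, and one that met this rule is not reported here. The members and lists were chosen with earlier results of these data known. No human sequence was used here.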

Additional observations from a re-analysis of the deposited data

Results flagged for a closer look

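Of 80 groups of 4 to 10 mice (8 genes, 5 classes, 2 treatments), 8 had 1 mouse far from the others by Dixon's criterion. For normally distributed values chance alone gives about 1 in 20. Levels of TGFB2 and INHBA in cDC2, T and NK cells rest on few UMIs or few cells, where that rate need not hold. TGFB2 reached 52.2 CPM in cDC2 of 1 maraviroc mouse (next 2.93), 11.2 in T cells of 1 untreated mouse (next 3.92) and 14.1 in NK cells of 1 maraviroc mouse (next 5.89). INHBA reached 139 in cDC2 of 1 untreated mouse (next 32.8), 148 in cDC2 of 1 maraviroc mouse (next 35.1) and 22.2 in NK cells of 1 untreated mouse (next 6.40). TGFBR1 reached 141 in monocytes of 1 maraviroc mouse (next 87.6), and TGFBI 708 in macrophages of 1 maraviroc mouse (next 585).

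The difference of a class or state from its reference, or of maraviroc from untreated mice, was tested between the reactions for 114 member values, and 5 passed (edgeR, adjusted over all genes). TGFB2 across classes and states was left out of these 114, since it is given without a test there. Its pooled level was 3.36 and 0.637 CPM in T cells and 6.40 and 0.441 in NK cells of reactions 1 and 2, while macrophages had 76.9 and 99.9. TGFBI fell further below macrophages in reaction 2 than in reaction 1 in mast cells (-3.96 ± 1.13, adjusted p = 0.0326), T cells (-1.71 ± 0.28, adjusted p = 0.00061), NK cells (-3.27 ± 0.40, adjusted p = 7.3e-06) and B cells (-4.25 ± 0.80, adjusted p = 0.0014), all log2 ± SE. The summed macrophage markers in these classes were 740, 269, 368 and 654 CPM in reaction 1 and 99.5, 81.8, 68.4 and 83.4 in reaction 2, and their part in the result was not tested. SMAD3 in T cells against macrophages was 1.02 ± 0.27 higher in reaction 2 (adjusted p = 0.0230).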

How the results depend on the processing

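Of 54 calls of a member, 28 held in every alternative where they could be fitted, 38 did so when single reactions are left aside, and 26 changed in at least 1. An alternative without a fit was not counted as a change. Only 47 of the 54 calls had a value under stricter gates, and 47 in reaction 2 alone. The share of all genes called in each setting, or without 1 mouse, is not set beside the counts below. Single reactions hold fewer mice, and stricter gates fewer cells. Changes in these counts are therefore not read as particular to the members. Member calls changed as follows. In cDC2, 5 became 2 in reaction 1 alone, 3 with DESeq2 and 2 under stricter gates. In mature dendritic cells, 2 became 1 with DESeq2 and 4 scaled by totals. In mast cells 4 became 2, in B cells 5 became 3 in reaction 1. In GLUT1+, 2 became 0 under stricter gates and 4 by totals. In MT1G+, 1 became 0 in either reaction, under stricter gates and by totals, and 2 with all genes or cells above 1000 genes. In CXCL10+, 3 became 1 and 0 in reactions 1 and 2, and in LYVE1+ 5 became 2 in each. In IL1A/CCL20, 0 became 1 with all genes. In cycling cells, 0 became 1 in either reaction and with DESeq2, and 2 with all genes. TGFB1 in T cells against macrophages turned from -0.20 to 0.0471 by totals, and TGFBR1 under treatment in monocytes from -0.19 to 0.225 in reaction 1.

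Leaving out 1 mouse gave 3 to 5 called members in cDC2, 1 to 3 in mature dendritic, 2 to 4 in mast, 5 to 6 in monocytes and B cells, 6 in T, 4 to 5 in NK, 3 to 4 in tumor cells and in T against NK cells, 2 in GLUT1+, 0 to 2 in MT1G+, 2 to 4 in CXCL10+, 5 in LYVE1+, 2 to 3 in TREM2+ SPP1+ and 0 to 1 in cycling cells. For treatment, keeping all genes with a count called 3, 35, 26, 92 and 14 genes in macrophages, monocytes, cDC2, T and NK cells, DESeq2 called 1 in T cells, and leaving out 1 mouse 0 to 1 in cDC2, and no member was among them. A member without a call counts as turned only where both values exceed their SE.

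With hashtag doublets and negatives included, 202 levels of at least 20 CPM moved by 0.60 to 2.77 times (median 0.993), 7 beyond 1.5 times: TGFBI in reaction 1 went from 63.2 to 175 in mast, 32.8 to 80.7 in T, 51 to 77.8 in NK and 64.4 to 119 in other T cells, TGFB2 went from 54.8 to 35.1 in tumor cells of reaction 1 and 23.1 to 37.7 in CXCL10+ cells of reaction 2, and SMAD3 from 164 to 98.1 in mast cells of reaction 1. Scaling by totals was chosen after seeing the data. Stricter gates left no IL1A/CCL20 fit, and mature dendritic, tumor and IL1A/CCL20 cells could not be fitted in reaction 2 alone. No paired analysis was possible because the hashtags' replicate numbers mark different mice; classes and states have the mouse as a block. Depth limits INHBA and TGFB2 outside myeloid and tumor cells, where sums hold few UMIs.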
